A study of Mus musculus and Rattus norvegicus with 21 samples.

Results

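The WT H3K27me3 peak lists of mouse thyroid glands on a low iodide diet (LID) and on a normal diet (ND) were compared on chromosomes 1 to 19 of mm10. The WT-LID list held 2576 peaks and the WT-ND list 2996 peaks, out of 295051 peaks in the 13 lists of the series. Merged wherever they overlapped by at least 1 bp, these peaks gave 4125 regions, of which 1200 were called on the LID only, 1588 on the ND only and 1337 on both diets. A gene was counted as marked when a peak reached within 1 kb of one of its start sites. For a gene with several start sites, the cover given is the largest among them, taken for each library separately. Of 20021 protein-coding genes with a curated RefSeq transcript, 423 were marked on the LID only, 406 on the ND only and 917 on both diets. These are 2.11%, 2.03% and 4.58% of the genes, and 1746 genes were marked on at least 1 of the diets.

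Both groups were C57BL/6 WT mice labelled as 1 month old, fed the LID TD.95125 or the NIH-31 ND, and both libraries were made with antibody ab6002. Of 21 samples in the series, 8 were inputs, and the other 13 each had a peak list. Each group was 1 library with no replicate, the number of animals behind a library was not found in the labels or methods, and the peaks carry no score, so that the depth is unknown and no difference between the diets could be tested. The intervals below are 95% intervals that cover counting error only and say nothing of the spread between animals. Whole glands were used. A peak called on 1 diet can therefore stand for a mark in more cells or for more mark in the same cells, and these cannot be told apart.

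H3K27me3 is placed by Polycomb repressive complex PRC2 and is found over silent genes, above all over the CpG-rich start sites of regulators of development. In a differentiated tissue it covers the genes of other lineages, often in wide domains, and a start site that also carries H3K4me3 is called bivalent. Iodide is the substrate of thyroid hormone (TH) synthesis, and when it is scarce the pituitary releases more thyroid-stimulating hormone (TSH), which drives follicular cells to grow and to take up iodide. NKX2.1 and PAX8 are transcription factors (TFs) that define the follicular cell.

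Marker genes were looked up in both libraries, against a background of 91.3% of all genes without H3K27me3 on either diet and of 64.0% and 63.3% with H3K4me3 at a start site on the LID and on the ND. All 5 thyroid TF genes (Glis3, Hhex, Pax8, Nkx2-1 and Foxe1), all 12 epithelial markers and all 10 housekeeping genes on these chromosomes were free of H3K27me3 at their start sites on both diets and carried an H3K4me3 peak on both diets. The 12 immune markers carried neither mark on either diet. All 76 ribosomal protein genes and 1096 of 1101 olfactory receptor genes lacked H3K27me3 on both diets. With so few genes marked in all, the absence of H3K27me3 at a short list says little of the cells in the gland.

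The start regions of 6 genes are shown to illustrate the sequence at called genes: Tbx20 and Mnx1 (LID only) and Hand2 and Ebf3 (ND only) as the first genes by covered bases that had a RefSeq promoter and a peak on 1 diet only, Duoxa2 as a TH synthesis gene called on the ND only, whose ND peak ended upstream of the printed bases, and Hoxd13 as a gene called on both diets. The other 5 lie wholly within their peaks. Each runs 5′ to 3′ on the strand of the gene from 250 bases before to 50 bases after the start (RefSeq, GRCm38.p6), with CG dinucleotides in capitals. The positions are chr9:24774254-24774553 (minus strand) for Tbx20, chr5:29478421-29478720 (minus) for Mnx1, chr8:57320733-57321032 (plus) for Hand2, chr7:137314396-137314695 (minus) for Ebf3, chr2:122298650-122298949 (plus) for Duoxa2 and chr2:74667975-74668274 (plus) for Hoxd13.
Tbx20: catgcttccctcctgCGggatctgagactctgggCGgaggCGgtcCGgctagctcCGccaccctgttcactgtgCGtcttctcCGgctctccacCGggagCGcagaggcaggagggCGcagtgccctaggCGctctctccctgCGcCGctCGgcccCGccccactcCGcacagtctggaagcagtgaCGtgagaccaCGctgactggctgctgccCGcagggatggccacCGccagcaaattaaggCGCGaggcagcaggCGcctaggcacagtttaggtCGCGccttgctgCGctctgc
Mnx1: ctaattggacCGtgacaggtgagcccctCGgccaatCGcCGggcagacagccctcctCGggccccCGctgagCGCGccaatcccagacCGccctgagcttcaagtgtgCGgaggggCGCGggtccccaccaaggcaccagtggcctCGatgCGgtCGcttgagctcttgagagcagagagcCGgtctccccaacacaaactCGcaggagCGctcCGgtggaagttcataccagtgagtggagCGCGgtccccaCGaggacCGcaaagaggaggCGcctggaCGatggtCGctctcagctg
Hand2: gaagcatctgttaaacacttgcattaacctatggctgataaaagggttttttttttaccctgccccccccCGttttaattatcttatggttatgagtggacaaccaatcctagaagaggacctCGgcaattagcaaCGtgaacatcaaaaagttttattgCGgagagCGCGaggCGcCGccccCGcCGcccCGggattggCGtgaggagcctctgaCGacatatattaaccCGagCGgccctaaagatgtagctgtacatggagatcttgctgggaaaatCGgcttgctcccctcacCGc
Ebf3: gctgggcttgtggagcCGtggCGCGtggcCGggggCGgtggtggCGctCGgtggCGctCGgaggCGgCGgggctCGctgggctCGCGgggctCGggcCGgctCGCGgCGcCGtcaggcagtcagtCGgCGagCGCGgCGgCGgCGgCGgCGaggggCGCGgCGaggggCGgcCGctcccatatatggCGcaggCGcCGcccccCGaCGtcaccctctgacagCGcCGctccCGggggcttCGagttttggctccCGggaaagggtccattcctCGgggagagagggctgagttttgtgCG
Duoxa2: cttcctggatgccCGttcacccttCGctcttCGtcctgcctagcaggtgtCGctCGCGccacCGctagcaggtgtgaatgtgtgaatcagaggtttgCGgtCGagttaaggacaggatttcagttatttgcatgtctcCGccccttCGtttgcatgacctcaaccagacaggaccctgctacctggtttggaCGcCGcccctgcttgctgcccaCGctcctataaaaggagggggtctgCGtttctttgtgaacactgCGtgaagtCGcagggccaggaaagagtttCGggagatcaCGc
Hoxd13: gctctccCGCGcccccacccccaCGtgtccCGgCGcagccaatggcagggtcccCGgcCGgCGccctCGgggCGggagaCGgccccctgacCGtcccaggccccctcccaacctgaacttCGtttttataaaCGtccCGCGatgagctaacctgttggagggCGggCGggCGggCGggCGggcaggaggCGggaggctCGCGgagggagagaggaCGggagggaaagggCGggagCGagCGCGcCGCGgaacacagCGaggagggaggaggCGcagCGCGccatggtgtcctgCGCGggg

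The Ebf3 start region held 46 CG dinucleotides, Hoxd13 37, Tbx20 and Mnx1 26 each, Duoxa2 19 and Hand2 17. Over all 16010 genes with a promoter sequence the median was 16, and 62.1% had at least 10. The medians were 18 for genes marked on the LID only (302 of 423 with a sequence), 18 for the ND only (300 of 406) and 22 for both diets (674 of 917), and at least 10 CG dinucleotides were held by 78.8%, 77.0% and 86.2% of them. By this measure the start regions called on 1 diet had the same median on the LID and the ND, which lay between the medians of the genes marked on both diets and of all genes.

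The regions followed the same order over their whole length. The median GC content was 53.0% in regions on the LID only, 51.8% on the ND only and 55.2% on both, against 41.9% over chromosomes 1 to 19. The ratio of observed to expected CpG had a median of 0.341 on the LID only, 0.286 on the ND only and 0.497 on both, against 0.194 over the chromosomes. Interspersed and simple repeats, as masked in the reference, made up a median of 11.8%, 11.3% and 11.3% of these regions, against 33.5% over the chromosomes. Only 27 regions on the LID only, 40 on the ND only and 5 on both were more than 50% repeat.

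The diets differed in the number and width of the peaks and hardly in the total length covered. WT-LID peaks covered 7.414 Mb and WT-ND peaks 7.382 Mb, a ratio of 1.004, although the LID list had 0.86 times as many peaks. The median width was 1696 bp on the LID and 1372 bp on the ND, and the widest peaks were 49736 bp and 49314 bp. The LID list was the shorter or equal one on every numbered chromosome, with LID over ND ratios between 0.65 on chromosome 16 and 1.0 on chromosomes 14 and 18. Peaks of 1001 bp, the narrowest that occurred, made up 32.1% of the LID list and 40.1% of the ND list.

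Of the WT-LID peaks, 1376 (53.4%, Wilson interval 51.5 to 55.3%) overlapped a WT-ND peak, and of the WT-ND peaks, 1408 (47.0%, 45.2 to 48.8%) overlapped a WT-LID peak. The shared peaks were the wide ones. Their median width was 2596.5 bp on the LID and 2385 bp on the ND, whereas the median of the unshared peaks was 1001 bp on both diets. Shared peaks held 73.2% of the covered length on the LID and 70.5% on the ND, and 4.215 Mb were covered in both libraries.

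The share of peaks found on the other diet grew with width in both lists. Among peaks of 1001 bp, 22.5% on the LID and 16.6% on the ND were shared. Between 2 and 5 kb, 77.4% on the LID and 78.1% on the ND were shared, and over 10 kb the shares were 91.0% and 95.6%. That left 10 LID peaks and 4 ND peaks over 10 kb with no counterpart. Limited to peaks of at least 2 kb in both lists, 64.9% of the LID peaks and 68.7% of the ND peaks were shared, so that the order of the diets turned with this limit.

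**Figure D1:**
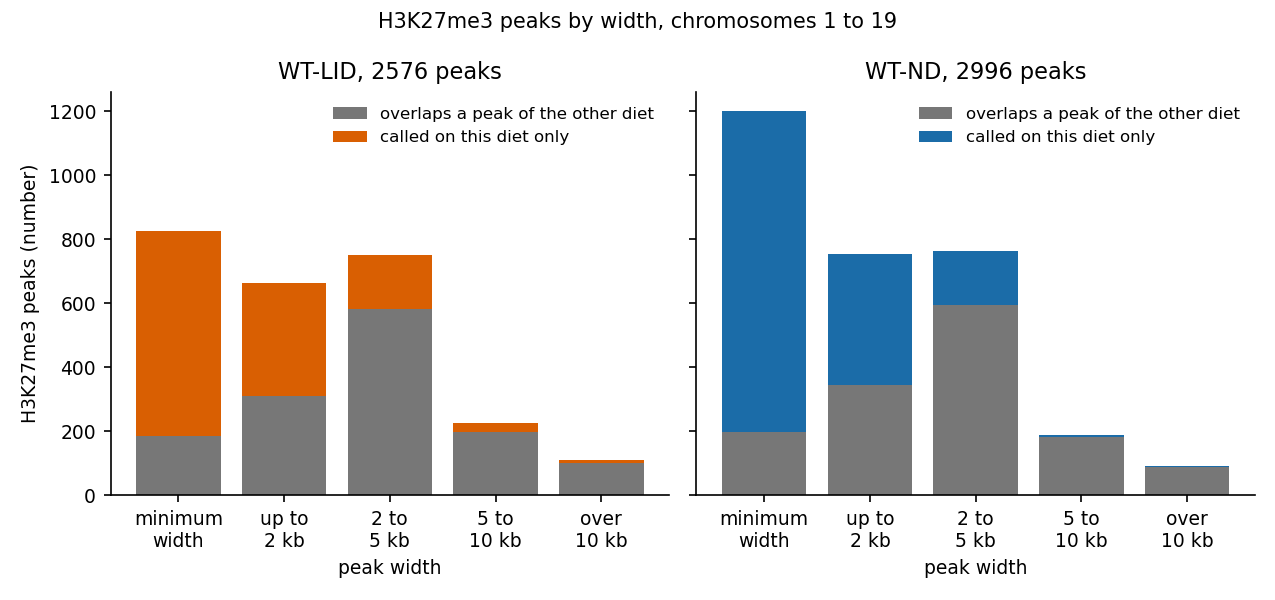
Number of H3K27me3 peaks (vertical axis) by peak width (horizontal axis) in the WT-LID list (left) and the WT-ND list (right), 1 library each; grey peaks overlap a peak of the other diet by at least 1 bp and coloured peaks do not. Unshared peaks are concentrated at the minimum width, with 640 on the LID and 1001 on the ND.

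Most unshared peaks lay more than 5 kb from any peak of the other diet. The nearest peak of the other list lay a median of 32439.5 bp away for peaks on the LID only and 47511.5 bp away for those on the ND only. It was within 5 kb for 22.8% of the LID peaks and 19.1% of the ND peaks, and more than 100 kb away for 35.1% and 39.4%. Where a region was called on both diets, its extent was similar. Of the 1337 such regions, 673 had more bases covered on the LID, 590 had more on the ND and 74 had equal numbers, and the median log2 ratio of LID over ND bases was 0.0057, with quartiles of -0.33 and 0.44.

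Regions called on 1 diet lay less often at genes' start sites than those called on both. A start site was within 1 kb of 35.3% (32.7 to 38.1%) of the regions on the LID only, 26.2% (24.1 to 28.4%) of those on the ND only and 68.4% (65.8 to 70.8%) of those on both. The regions on both were also wider, with a median of 3150 bp against 1001 bp in either 1-diet class. A wider region meets a start site window more easily, and the part of width in these shares was not tested. By their midpoints, 8.42% of the LID-only regions, 5.79% of the ND-only regions and 14.7% of the regions on both lay within 1 kb upstream of a start site. In gene bodies lay 51.1%, 49.2% and 62.5%, and 35.4%, 39.5% and 18.0% were intergenic. The genes were mostly marked one by one: 21 of the 423 LID-only genes, 11 of the 406 ND-only genes and 68 of the 917 genes of both diets shared a region with another marked gene.

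The 5 widest regions of either diet were mostly over genes, with 1 intergenic exception. On the LID only, the 5 widest were 14559 bp over Dlx4 (chr11:95137611-95152169), 13983 bp over Wt1 (chr2:105120194-105134176), 13852 bp over Tbx20 (chr9:24768824-24782675), 12969 bp over Mnx1 (chr5:29467029-29479997) and 12955 bp over Ccno and Mcidas (chr13:112985367-112998321). On the ND only, they were 16559 bp over Hand2 (chr8:57318706-57335264), 11652 bp over Ebf3 (chr7:137308633-137320284), 11473 bp over Ebf2 (chr14:67228154-67239626), 10754 bp of intergenic sequence whose midpoint lay at -34123 bp from the Tmem33 start site (chr5:67221065-67231818) and 8234 bp over Evx2 (chr2:74653891-74662124). Dlx4, Mnx1 and Evx2 are homeobox genes, Wt1 encodes a zinc finger factor of kidney and gonad, Tbx20 is a T-box gene of the heart, Mcidas and Ccno serve the making of multiciliated cells, Hand2 acts in heart and limb, and Ebf2 and Ebf3 are members of the early B cell factor family.

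At the start sites, 66 LID-only genes and 33 ND-only genes had the whole window of 2001 bp covered on their diet and 0 bp on the other. The genes named here are the 12 of either diet with the widest peaks among these ties. On the LID only, ordered by the width of their peak, they were Barhl2, Dlx4, Wt1, Tbx20, Mnx1, Ccno, Mcidas, Hand1, Tbx5, Pdx1, Pianp and Foxa2, with widths between 24013 bp and 10744 bp. Foxa2 is a pioneer factor of endoderm, Pdx1 a master gene of pancreas, and Hand1 and Tbx5 act in the developing heart. In Barhl2 and Tbx5 the LID peak also met an ND peak that did not reach the start site, so that these calls concern the extent of a domain present on both diets.

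The 12 named ND-only genes were Foxc2, Hand2, Ebf3, Ebf2, Evx2, Dmrt2, Gm42517, Cacna1e, Asphd2, Shisa6, Slc47a1 and Nkx2-6, with ND peaks between 17855 bp and 4531 bp wide. Foxc2 acts in lymphatic vessels and mesoderm, Cacna1e encodes a neuronal calcium channel subunit and Slc47a1 an exporter of organic cations. At Foxc2 the ND peak also met a LID peak, which lay downstream and covered no base of the window.

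Over all 1-diet genes the marks were smaller than in these examples. The median cover was 1134 bp of the window for the 423 LID-only genes and 1001 bp for the 406 ND-only genes, the median peak width was 1537 bp and 1283 bp, and the whole window was covered in 15.6% and 8.13%. For 32 LID-only genes and 18 ND-only genes the peak at the start site overlapped a peak of the other diet outside the window. A peak of the other diet lay within 5 kb of a start site for 57 LID-only genes and 32 ND-only genes.

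**Figure D2:**
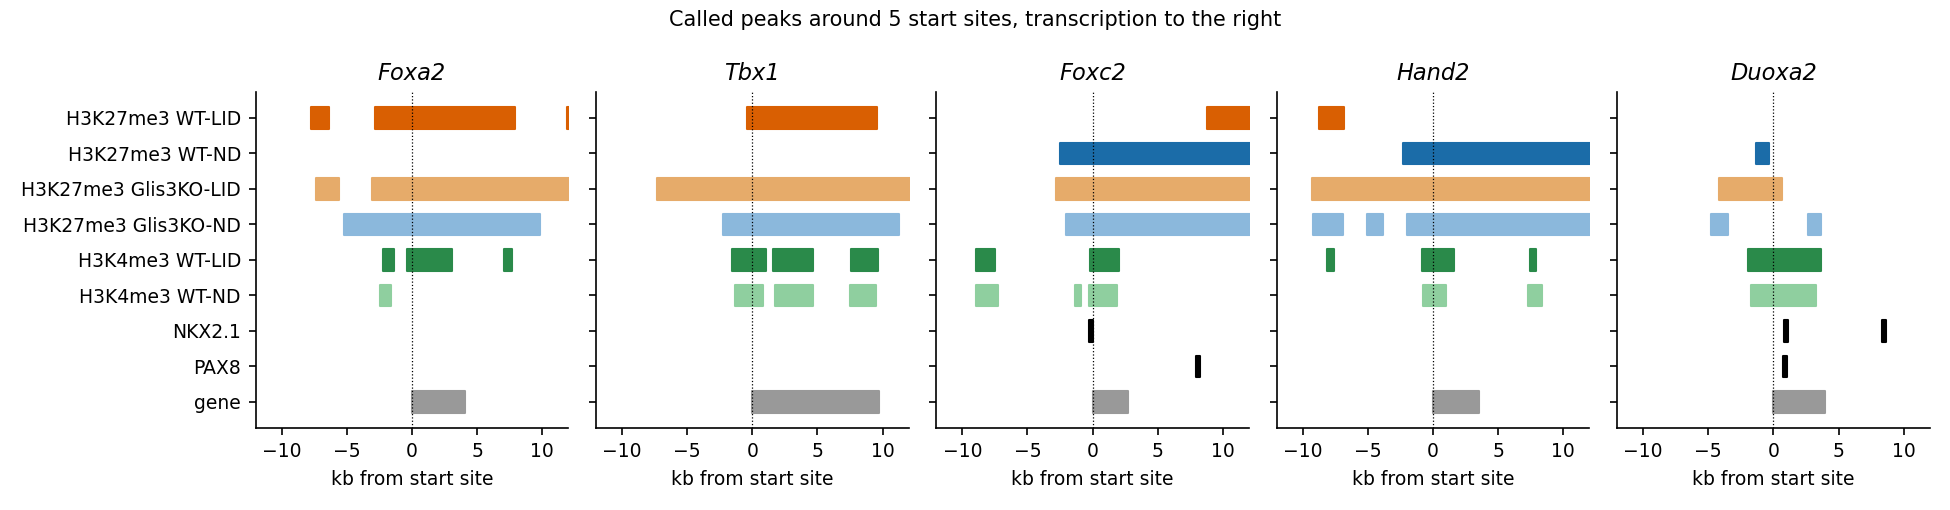
Called peaks around the start sites of Foxa2, Tbx1, Foxc2, Hand2 and Duoxa2, drawn to scale as boxes along the distance from the start site in kb, with transcription to the right and boxes ending at the edge of each panel; rows are the H3K27me3 and H3K4me3 libraries, the NKX2.1 and PAX8 lists and the gene. H3K27me3 over the Foxa2 and Tbx1 start sites is in the WT-LID row and not in the WT-ND row, and over those of Foxc2 and Hand2 in the WT-ND row and not in the WT-LID row, while both Glis3KO rows cover all 4.

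Genes of developmental TF families were marked on the LID only more often than on the ND only. Of 238 members of 13 families, 29 (12.2%) were marked on the LID only, 11 (4.62%) on the ND only and 122 (51.3%) on both diets. Among all genes the corresponding shares were 2.11%, 2.03% and 4.58%. The 29 and 11 genes are counts from 1 library each, with no test. With peaks of at least 2 kb only, they were 25 on the LID only and 15 on the ND only.

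The LID-only members came from most of these families. Forkhead genes were marked on the LID only in 5 cases, among them Foxa2, Foxa3, Foxc1 and Foxe3, and on the ND only in 1 (Foxc2). T-box genes were called on the LID only in 3 cases (Tbx1, Tbx5 and Tbx20) and on the ND only in none of 16. The Zic and Gli genes had 3 LID-only members (Gli1, Glis1 and Zic4) and no ND-only member among 10. Lineage bHLH genes, which start nerve, muscle and blood programmes, had 5 on the LID only (Bhlhe23, Hand1, Neurod1, Olig3 and Twist2) and 3 on the ND only (Hand2, Tal1 and Tcf15). In 2 of the 13 families the ND-only members outnumbered the LID-only ones.

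Several of these genes had their window covered entirely on the LID. Sox2, a factor of stem cells and foregut, had 2001 bp under a LID peak of 4374 bp and 0 bp on the ND. Tbx1, which patterns the pharyngeal arches, had 2001 bp under a LID peak of 9940 bp and 0 bp on the ND. Pax3, a factor of neural crest and muscle precursors, had 2001 bp under 9270 bp, Foxc1 2001 bp under 7322 bp and Neurod1 2001 bp under 5987 bp, all with 0 bp on the ND. The Neurod1 peak also met an ND peak outside the window. At the other end, Irx3 had 87 bp covered on the LID, under a peak that likewise met an ND peak elsewhere. On the ND only, Tal1, a factor of blood and endothelium, had 1765 bp under a peak of 3478 bp and Sox17, a factor of endoderm and endothelium, 1918 bp under 2032 bp, both with 0 bp on the LID.

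The 122 TF genes marked on both diets were covered by wider peaks on the LID in 72 cases, wider on the ND in 49 and equal in 1. Their median peak width was 10884 bp on the LID and 8396.5 bp on the ND. Over all 917 genes marked on both diets, 468 had the wider peak on the LID, 418 on the ND and 31 were equal, with medians of 3021 bp on the LID and 2857 bp on the ND. Cover of the window was equal for 81 of the 122 TF genes. Genes under the same peak were counted one by one, so these cases are not independent. A single LID peak of 49736 bp gave the LID width of several Hoxa genes. Splitting also makes peaks narrower: with 10 kb on either side, the Hoxa cluster had 60.6 kb in 5 LID peaks and 67.2 kb in 8 ND peaks.

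**Figure D3:**
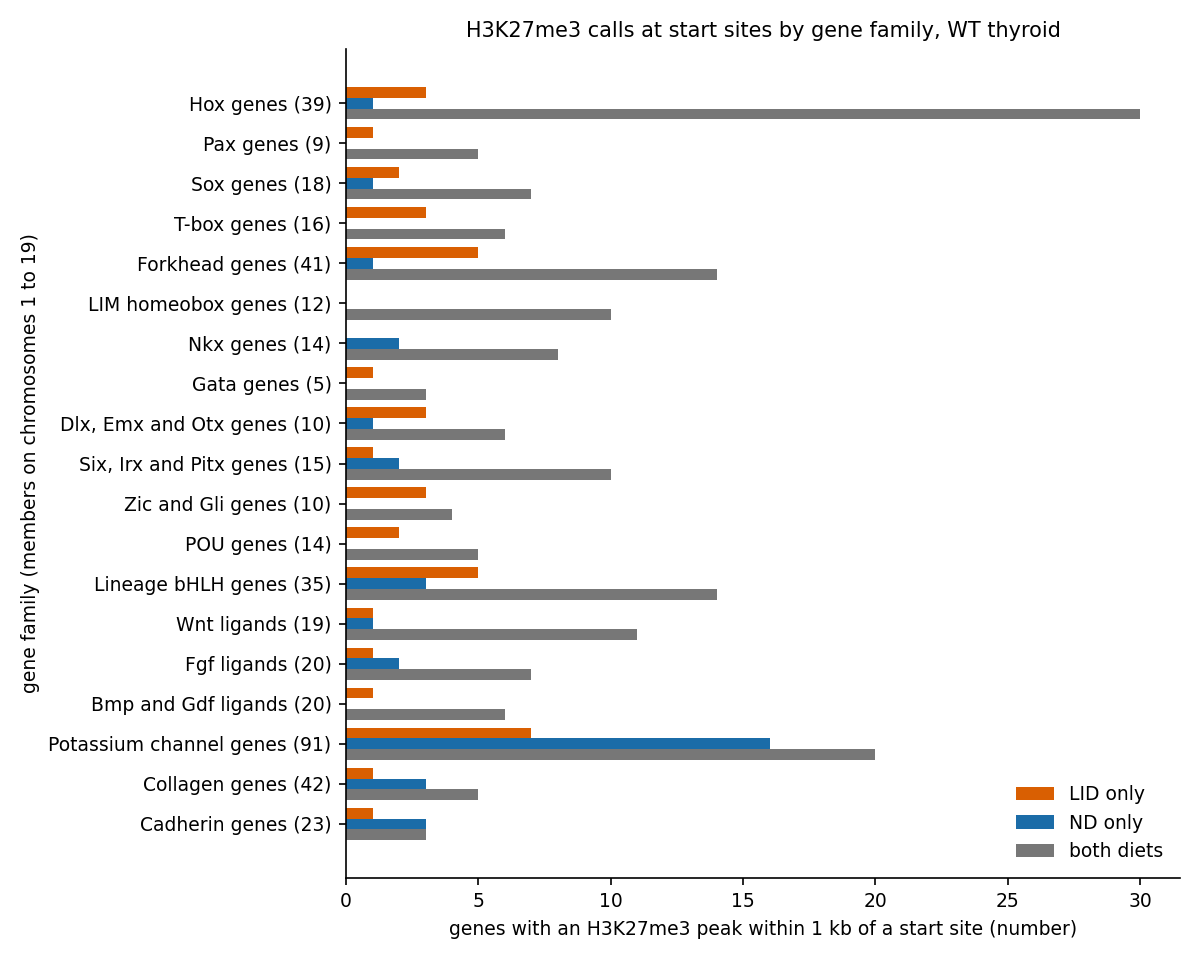
Number of genes with an H3K27me3 peak within 1 kb of a start site (horizontal axis) in 19 gene families (rows, with the number of members on chromosomes 1 to 19 in brackets), called on the LID only, the ND only or both diets, 1 library per diet. Forkhead genes have 5 members on the LID only and 1 on the ND only, and potassium channel genes 7 on the LID only and 16 on the ND only.

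The Hox genes, which set position along the body axis, included the widest peak of either library. Of 39 Hox genes, 30 were marked on both diets and Hoxa4, Hoxd3 and Hoxd4 on the LID only. The 10 genes of both diets under the widest peaks were all Hoxa or Hoxc genes. The peak over Hoxa10 was 49736 bp on the LID (chr6:52204871-52254606) and 30243 bp on the ND, and that over Hoxc10 was 36617 bp on the LID and 49314 bp on the ND. The wider peak was thus on the LID at Hoxa10 and on the ND at Hoxc10.

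The number of peaks into which a cluster was split differed as well. Counted with 10 kb on either side, the Hoxa cluster had 60.6 kb covered in 5 peaks on the LID and 67.2 kb in 8 peaks on the ND, and the Hoxc cluster 92.6 kb in 9 peaks and 92.0 kb in 8 peaks. Hoxb had 68.1 kb on the LID and 52.6 kb on the ND, and Hoxd 63.8 kb and 50.9 kb. Among genes of both diets, the LID peak exceeded the ND peak by most at Hoxa5, Hoxa11, Hoxd12, Hoxd13 and Hoxa10, for example 35535 bp on the LID and 5721 bp on the ND at Hoxd13, where the start window was covered over 2001 bp on both diets. The ND peak exceeded the LID peak by most at Hoxc8, Dlx2, Dlx1, Sp9 and Hoxc10, for example 5176 bp on the LID and 19438 bp on the ND at Sp9, a zinc finger gene, with 2001 bp of the window covered on both diets.

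Most marked signalling ligand genes were marked on both diets. The shares of all genes were 2.11% on the LID only, 2.03% on the ND only and 4.58% on both. Of 19 Wnt genes, 11 were marked on both diets, Wnt6 on the LID only (5.26%) and Wnt16 on the ND only (5.26%). Of 20 Fgf genes, 7 were marked on both, Fgf9 on the LID only (5.0%) and Fgf10 and Fgf14 on the ND only (10%), and of 20 Bmp and Gdf genes, 6 were marked on both and Gdf2 on the LID only.

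Potassium channel genes had more ND-only than LID-only calls. Of 91 members, 7 (7.69%) were marked on the LID only, 16 (17.6%) on the ND only and 20 (22.0%) on both, against 2.11%, 2.03% and 4.58% of all genes, so that both 1-diet shares lay above the background. With peaks of at least 2 kb the counts were 8 on the LID only and 9 on the ND only. Kcnj6, an inward rectifier of neurons, had 0 bp covered on the LID and 2001 bp on the ND, Kcnk2 0 bp and 1684 bp, and Kcnma1 0 bp and 1413 bp. In the other direction Kcnq5 had 1522 bp on the LID and 0 bp on the ND. The peaks of the 16 ND-only genes had a median width of 1655.5 bp, against 2315 bp for the 7 LID-only genes. Over all 1-diet genes these medians were 1283 bp for the ND only and 1537 bp for the LID only. Cadherin genes (Cdh3 on the LID only, Cdh6, Cdh8 and Cdh13 on the ND only) and collagen genes (Col27a1 on the LID only, Col9a2, Col12a1 and Col23a1 on the ND only) also had 1-diet members, 4 each of 23 and 42 genes.

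Most genes of the study's thyroid lists were unmarked, as were 91.3% of all genes. On at least 1 diet, 14.5% of the listed genes and 8.72% of all genes were marked. The listed genes marked on 1 diet only were all marked on the ND. Of 62 genes in 6 lists of thyroid, TSH-induced, extracellular matrix (ECM) and inflammation genes that the study chose with these samples, 0 were marked on the LID only, 6 (9.68%) on the ND only, 3 (4.84%) on both and 53 (85.5%) on neither. The shares of all genes were 2.11% on the LID only, 2.03% on the ND only and 4.58% on both. The 6 ND-only genes were Duox2 and Duoxa2, which form the enzyme that supplies peroxide for TH synthesis, Ano1, a chloride channel, Cdh13, the ECM protease gene Adamts8 and the collagen gene Col12a1. The choice of these lists is no independent evidence of a direction.

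At these 6 genes the ND peaks were between 1001 bp and 2846 bp wide, and no base of the window was covered on the LID. Duox2 had 0 bp on the LID and 1001 bp on the ND, and Duoxa2 0 bp and 676 bp, both from the same ND peak of 1001 bp (chr2:122297575-122298575). Adamts8 had 0 bp on the LID and 1676 bp on the ND under a peak of 2846 bp, Ano1 0 bp and 1137 bp, Cdh13 0 bp and 885 bp, and Col12a1 0 bp and 197 bp. Apart from Adamts8 and Cdh13, whose ND peak was 2061 bp wide, none of these peaks reached 2 kb. All 6 genes had H3K4me3 at a start site on both diets. At Duox2 and at Duoxa2 it covered the whole 2001 bp on the LID and on the ND, and at Ano1 626 bp on the LID and 841 bp on the ND. At Ano1 and Cdh13 the ND peak of H3K27me3 lay well inside the gene, so that the marks may be at different start sites. The 3 genes marked on both diets were Gnas, a complex locus with several start sites that was marked at its most upstream one, with 2001 bp on the LID and 835 bp on the ND, and the collagen genes Col13a1, with 2001 bp on the LID and 1889 bp on the ND, and Col14a1, with 836 bp and 2001 bp.

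Genes of hormone response, cAMP signalling and the cell cycle were mostly unmarked (90.9%, 85.7% and 85.7%), as were 91.3% of all genes. Dio3, the deiodinase that inactivates TH, was marked on both diets (2001 bp on the LID and on the ND) and was the only one of 11 thyroid hormone response genes to be marked. Egr2 and Egr3 of the 14 cAMP and immediate early genes were marked on both diets. Among 14 cell cycle genes, the inhibitor Cdkn1c was marked on the LID only (897 bp, against 0 bp on the ND) and Cdkn2a on both.

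Markers of other cells of the gland differed between the diets at a few genes each, beside 2.11% of all genes on the LID only and 2.03% on the ND only. With such shares a count of 0 in a short list says little. Of 12 fibroblast markers, Pdgfrb, Prrx1 and Twist2 were marked on the LID only and 0 on the ND only. Of 9 C cell markers, Calcb, Chga and Sst were marked on the ND only and 0 on the LID only. Of 8 adipocyte markers, the brown fat genes Ucp1 and Cidea were marked on the ND only. Sox17 among 12 endothelial markers was marked on the ND only, Tbx1 among 5 parathyroid markers and Pax3 among 12 skeletal muscle markers on the LID only. Whether the cell types of the 2 glands' preparations differed was not tested.

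The same places were then looked up in libraries that had played no part in the calls. The Glis3KO libraries come from glands without a working Glis3 gene, which encodes a TF needed for TH synthesis, on the LID and on the ND, again 1 library each. Of the regions on the LID only, 88.2% (86.2 to 89.9%) overlapped a peak of the Glis3KO-LID library and 47.2% one of Glis3KO-ND. The shares were 80.0% (77.9 to 81.9%) and 37.6% for regions on the ND only, and 99.1% and 89.2% for regions on both. Only 126 LID-only regions (10.5%), 296 ND-only regions (18.6%) and 8 regions of both diets (0.598%) were in neither Glis3KO library. The Glis3KO-LID list is the longest of the series' H3K27me3 lists, with 17570 peaks, against 4043 in Glis3KO-ND. Its peaks covered 2.197% of chromosomes 1 to 19, and those of Glis3KO-ND 0.5297%. No background share was computed for the regions.

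At genes the measure differed, since any Glis3KO peak in a start window counted, whether or not it met the WT peak. These shares are therefore not comparable with those of the regions. H3K27me3 was called within 1 kb of a start site in Glis3KO-LID for 97.9% of the LID-only genes and 95.6% of the ND-only genes, against 17.6% of all genes. In Glis3KO-ND it was called for 69.0% (64.5 to 73.2%) of the LID-only genes and 59.4% (54.5 to 64.0%) of the ND-only genes, against 8.89% of all genes. Each of the 12 named LID-only genes and each of the 12 named ND-only genes had the full 2001 bp of a start window covered in both Glis3KO libraries. Thus a gene called on the LID only in WT was, in most cases, called on the ND in Glis3KO.

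H3K4me3 was frequent at the 1-diet genes and its own calls were more often on the same diet. H3K4me3 was within 1 kb of a start site, not always the one with H3K27me3, in WT-LID for 78.0% of the LID-only genes, 69.5% of the ND-only genes and 81.0% of the genes on both, against 64.0% of all genes. In WT-ND the shares were 66.9%, 73.9% and 79.6%, against 63.3%. Among the LID-only genes, 58 (13.7%, 10.8 to 17.3%) had H3K4me3 on the LID only and 11 (2.60%, 1.46 to 4.60%) on the ND only. Among the ND-only genes, 23 (5.67%, 3.8 to 8.36%) had it on the LID only and 41 (10.1%, 7.53 to 13.4%) on the ND only. Over all genes these shares were 2.47% and 1.77%. Genes with H3K27me3 on both diets also lay above them, with 87 (9.49%, 7.76 to 11.6%) on the LID only and 74 (8.07%) on the ND only. The interval of the 9.49% overlapped that of the 13.7%, and 8.07% lay inside the interval of the 10.1%. The opposite-diet shares of 2.60% and 5.67% were below 8.07% and 9.49%. In both 1-diet classes the diet with the H3K27me3 call had the larger number of 1-diet H3K4me3 calls.

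**Figure D4:**
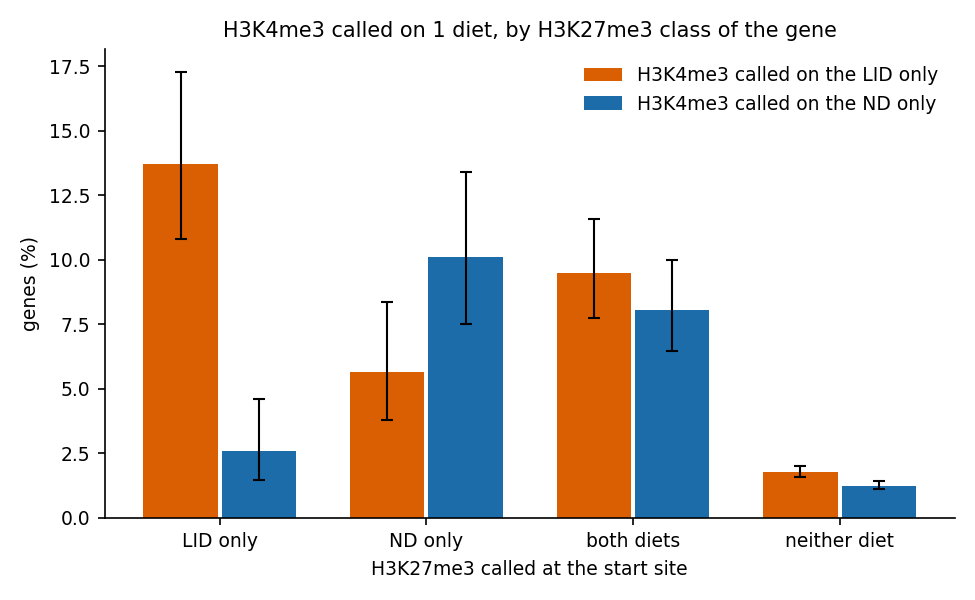
Percentage of genes (vertical axis) with an H3K4me3 peak within 1 kb of a start site on the LID only or on the ND only, for genes with H3K27me3 on the LID only, the ND only, both diets or neither (horizontal axis); bars are 1 library per mark and diet and error bars are Wilson intervals that cover counting error only. LID-only H3K4me3 is at 13.7% of the LID-only genes and ND-only H3K4me3 at 2.60%, and for the ND-only genes the values are 5.67% and 10.1%.

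Named genes gave examples, with each mark taken at the start site it covered most. Foxa2 had 2001 bp of H3K4me3 on the LID and 0 bp on the ND, Sox2 1318 bp and 0 bp, Tbx20 1061 bp and 0 bp, and Pdx1 631 bp and 0 bp, all with H3K27me3 on the LID only. Asphd2 (0 bp on the LID and 501 bp on the ND) and Ucp1 (0 bp and 637 bp) had both marks on the ND only. The marks were on opposite diets at Cacna1e (H3K4me3 over 649 bp on the LID and 0 bp on the ND) and Evx2 (499 bp and 0 bp), which had H3K27me3 on the ND only. At Cacna1e the ND peak of H3K27me3 lay well inside the gene, so that the marks may be at different start sites. The marks were also on opposite diets at Cdkn1c, with H3K27me3 on the LID only and H3K4me3 over 0 bp on the LID and 870 bp on the ND. Neurod1, Olig3, Hand1 and Nkx2-6 had no H3K4me3 at the start site on either diet.

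NKX2.1 and PAX8 peaks were then placed on these regions. Both factor libraries are labelled as WT glands on the LID, but the study's methods describe Glis3-EGFP mice, older and kept longer on the LID than the mice of the histone libraries, so that factor and histone peaks may come from different mice. No factor library on the ND was used, so binding could not be compared between diets. On chromosomes 1 to 19 the deposited lists held 45836 peaks of 300 bp for NKX2.1 (18.6 per Mb) and 50758 for PAX8 (20.6 per Mb). Of all genes, 36.4% had an NKX2.1 peak and 43.3% a PAX8 peak within 5 kb.

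NKX2.1 was sparse in H3K27me3 regions of every class. Its peak midpoints numbered 7.56 per Mb (exact Poisson interval 4.23 to 12.5, 15 peaks) in regions on the LID only, 9.18 per Mb (5.60 to 14.2, 20 peaks) on the ND only and 9.19 per Mb (7.0 to 11.9, 59 peaks) on both. These were below the 18.6 per Mb of the chromosomes and far below the 95.6 per Mb of all start site windows. The intervals of the 3 classes overlapped.

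PAX8 was denser than NKX2.1 in all 3 classes. Its midpoints numbered 30.7 per Mb (23.5 to 39.5, 61 peaks) on the LID only, 29.8 per Mb (23 to 38, 65 peaks) on the ND only and 36.5 per Mb (31.9 to 41.4, 234 peaks) on both, against 20.6 per Mb over the chromosomes and 138.0 per Mb in start site windows. In regions with no start site within 1 kb the densities were 22.6, 27.1 and 26.4 per Mb. The LID-only and ND-only intervals overlapped for either factor, and a difference between the diets was not detectable with these numbers of peaks.

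**Figure D5:**
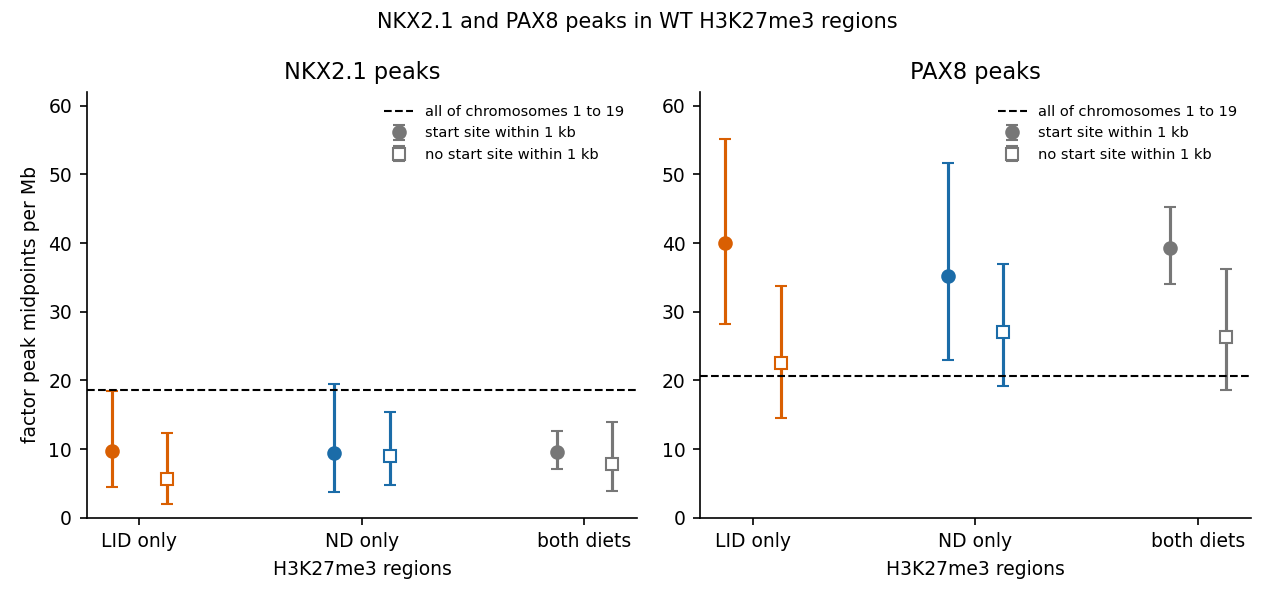
NKX2.1 (left) and PAX8 (right) peak midpoints per Mb (vertical axis) in H3K27me3 regions on the LID only, the ND only and both diets (horizontal axis), for regions with (filled circles) and without (open squares) a start site within 1 kb; error bars are exact Poisson intervals for counting error only and the dashed line is the density over chromosomes 1 to 19. PAX8 lies at 40.0, 35.2 and 39.3 per Mb in regions at start sites and NKX2.1 between 9.48 and 9.73 per Mb.

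Nearness to the factors was also similar between the diets. An NKX2.1 midpoint lay within 5 kb of 17.6% of the regions on the LID only, 18.5% on the ND only and 17.5% on both, and a PAX8 midpoint within 5 kb of 24.1%, 24.9% and 31.2%. Median distances to NKX2.1 were 23636.5 bp on the LID only and 22143.5 bp on the ND only, and to PAX8 16581.5 bp and 15039.5 bp. Counted by gene, an NKX2.1 peak was within 5 kb of a start site for 19.9% (16.3 to 23.9%) of the LID-only genes, 21.4% (17.7 to 25.7%) of the ND-only genes and 17.0% of the genes on both, and a PAX8 peak for 28.8%, 29.1% and 30.3%.

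A part of the 1-diet regions overlapped factor peaks. An NKX2.1 peak overlapped 20 regions on the LID only (1.67%) and 33 on the ND only (2.08%), against 4.56% of the wider regions on both diets. A PAX8 peak overlapped 68 (5.67%) and 77 (4.85%), against 16.2% of the regions on both diets. On the LID only, the Pax3 region held 2 NKX2.1 peaks, with midpoints at 955 bp and at -6614 bp from the start site, and Flt3, a receptor of blood progenitors, had an NKX2.1 and a PAX8 peak that overlapped, at 89 bp and 113 bp. On the ND only, Kcnj6 had an NKX2.1 peak at 127 bp, and Rgs8, a regulator of G protein signalling, overlapping NKX2.1 and PAX8 peaks at 221 bp and 227 bp. Of the NKX2.1 peaks, 1 of 15 on the LID only and 7 of 20 on the ND only overlapped a PAX8 peak. The same share over all NKX2.1 peaks was not computed, so these small counts have no background and show no difference between the diets. The genes named here were chosen after their values were seen, apart from Pax3 and Kcnj6.

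At Duoxa2 the factors lay beside the ND-only peak and not in it. Overlapping NKX2.1 (chr2:122299688-122299987) and PAX8 (chr2:122299676-122299975) peaks had their midpoints at 938 bp and 926 bp from the Duoxa2 start site, within the gene, whereas the ND peak of H3K27me3 ran from -1325 bp to -325 bp. Both factor peaks were inside the H3K4me3 peaks, which spanned 5600 bp on the LID and 4946 bp on the ND. In Glis3KO-LID an H3K27me3 peak of 4877 bp covered the same place as the ND peak, from -4180 bp to 696 bp, and in Glis3KO-ND the nearest peaks ended at -3495 bp and began at 2672 bp.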

How the data were processed

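Chromatin immunoprecipitation sequencing was analysed from the deposited peak lists. Per the submitters' processing notes and the methods, the authors removed adapters (cutadapt 1.12), kept uniquely mapped reads on mm10 (Bowtie 1.2) and discarded duplicates (Picard 1.110). HOMER 4.10.3 called histone marks in its region mode and factors at a false discovery threshold against input. Use of input for histone lists was not stated in the methods. The deposited lists hold peak coordinates, an other unit with no count, signal or score. Peaks were compared by 1 bp overlap in Python 3.11.15 (pandas 2.3.3, numpy 2.4.6, scipy 1.17.1), and genes by RefSeq start sites of GRCm38.p6, the build of mm10. The interval code was tested on simulated data. Named genes were the 12 of either diet with most covered bases, the 10 under the widest shared peaks, the 5 with the largest width differences either way, 1-diet members of the lists and families, thyroid genes and the 5 widest 1-diet regions. Members and lists were chosen with earlier results of these data known. The X chromosome was left out. The alternatives are given in the closing section. A few items are not reported here.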

Additional observations from a re-analysis of the deposited data

Results flagged for a closer look

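The number of H3K27me3 peaks went in opposite directions with diet in the 2 genotypes. The ratio of LID to ND peaks on chromosomes 1 to 19 was 0.86 in WT (2576 and 2996 peaks) and 4.35 in Glis3KO (17570 and 4043 peaks). With 1 library per group this difference was not tested.

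Peaks on the X chromosome were outside the comparison. The WT-LID list had 55 and the WT-ND list 54, of which 15 of either list overlapped a peak of the other diet. They covered 88.3 kb on the LID and 89.6 kb on the ND.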

How the results depend on the processing

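Of 71 recomputed values, 55 stayed and 16 moved. A share or density stayed if it lay within its interval, a count if it was within 1.5 times, and covered length only if the rounded ratio was equal. Of these values, 44 were planned and 27 were added later, among them all those of the TF and potassium channel genes. The order of the diets in the number of 1-diet genes turned, with 461 on the LID only and 524 on the ND only in a window of 5 kb, and 366 and 374 where no peak of the other list was within 5 kb. The order of the diets in NKX2.1 density turned too. In regions of at least 2 kb it was 11.0 per Mb on the LID only (9 peaks) and 6.96 per Mb on the ND only (4 peaks). When 50% of the shorter peak had to be covered, 50.1% of the LID peaks and 43.9% of the ND peaks were shared. With peaks within 5 kb counted as shared these were 64.1% and 57.1%, and with peaks of at least 2 kb only 64.9% and 68.7%. Covered length on the LID over the ND was 1.06 with lists of equal length, where ties in width were drawn at random, and 1.11 with peaks of at least 2 kb. Peaks of at least 2 kb, a limit chosen after seeing the data, left 259 genes on the LID only, 222 on the ND only and 544 on both, and 9 potassium channel genes on the ND only. PAX8 density was 40.4 per Mb on the LID only and 43.5 on the ND only in regions of at least 2 kb, and 22.6 on the LID only and 26.4 on both in regions with no start site within 1 kb. The cause of these shifts was not tested. No paired analysis was possible because each diet had 1 library, and for the same reason no library could be left out. Depth is unknown, and the unshared peaks were mostly of the minimum width, so a missing peak does not show that the mark was absent.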
